A study of Homo sapiens with 3 samples.

Results

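Heat shock proteins and their co-chaperones were examined in KYSE140, a cell line established from a human squamous carcinoma of the oesophagus, after treatment with cisplatin, a DNA-crosslinking platinum compound. A list of 39 chaperone genes was matched by symbol to probe sets, the groups of short probes that report a transcript on the Affymetrix array. In all, 34 of the 39 were measured by a probe set annotated to that gene alone, among 19775 genes on the array, and the 34 genes had 80 such probe sets. The others were HSPA1A, HSPA1B, HSPA8, AHSA1 and HSF2. HSPA1A and HSPA1B share their 3 probe sets with each other, and the 4 probe sets of HSPA8 also carry the names of small nucleolar RNA genes, so no value is given for these genes. AHSA1 and HSF2 had no probe set under these symbols, alone or shared, in the annotation used, and have no array value either. The promoters of all of these unmeasured genes were searched. Although the list was named for the cytosol, HSPA9, HSPD1, HSPE1 and DNAJA3 encode mitochondrial proteins, and SERPINH1 and HSPA13 encode proteins of the secretory pathway.

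The comparison was made on 3 arrays, each of total RNA from KYSE140 cells grown in RPMI medium with serum. One array came from cells left untreated, and the other two, titled B1 and B2, came from cells given cisplatin at a labelled 10 mM for 12 h. Cell cultures are mostly given micromolar cisplatin, and whether the label means mM was not resolved. The labels do not say whether B1 and B2 were separate cultures, and the untreated state rests on 1 array. Of all genes, 6.23% were at least 2-fold apart between B1 and B2. Whether that spread is technical or lies in the cells was not tested. The comparison asked which transcripts differed after the drug.

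Chaperones bind unfolded protein and help it fold. HSP70 proteins work in cycles of ATP binding and hydrolysis: J-domain proteins (the DNAJ families) deliver clients and stimulate hydrolysis, and BAG proteins and HSP110 proteins exchange the nucleotide so that the client is released. HSP90 takes over many signalling clients, with STIP1, FKBP4, CHORDC1 and AHSA1 as co-chaperones, and small heat shock proteins hold unfolded clients without ATP. In heat-stressed cells the transcription factor HSF1 forms trimers that bind heat shock elements, which are inverted repeats of the bases GAA, in the promoters of many of these genes.

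The promoters of the chaperone genes that carry heat shock elements are shown first, because the motif that divides them is read from sequence alone, although motif and genes were chosen with earlier results of these arrays known. Windows of 250 bases before to 50 bases after each annotated transcript start, from RefSeq on GRCh38.p14, covered 34 of the 39 genes, with 50 windows in all. Those without a window were HSPA14, CRYAB, BAG4, FKBP4 and HSF1, so these 34 genes are not the same as the 34 measured genes. They were searched for a short form of the element, GAANNTTC or TTCNNGAA, and for a long form in which GAANNTTC is followed by NNGAA, or TTCNNGAA by NNTTC. Matches can overlap, and since each short form is its own reverse complement while the long forms are each other's, both strands were covered. The short form was found for 20 of the 34 genes (58.8%), against 16.2% of the 27305 genes of the same table, and the long form for 9 of 34 (26.5%), against 0.597%. By window, the short form lay in 42% of the chaperone windows and 13.5% of all 35116 windows, and the long form in 18% and 0.478%. These matches describe letters in a window and not binding of a factor.

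The 130 bases before the start are given 5′ to 3′ for 4 genes with the short form alone whose mean difference after cisplatin was among the 5 highest of the chaperone genes, with bases of a match in capitals.
DNAJB1 (chr19:14518398-14518527, minus strand): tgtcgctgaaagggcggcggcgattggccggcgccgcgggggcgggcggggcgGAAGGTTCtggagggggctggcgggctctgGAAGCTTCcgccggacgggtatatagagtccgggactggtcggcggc
DNAJA4 (chr15:78264432-78264561, plus strand): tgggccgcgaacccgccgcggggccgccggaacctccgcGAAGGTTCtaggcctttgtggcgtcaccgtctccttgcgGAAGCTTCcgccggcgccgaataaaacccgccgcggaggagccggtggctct
DNAJB4 (chr1:78004809-78004938, plus strand): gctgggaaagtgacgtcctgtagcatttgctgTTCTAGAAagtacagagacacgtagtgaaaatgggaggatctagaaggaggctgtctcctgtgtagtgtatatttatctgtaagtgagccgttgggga
BAG2 (chr6:57172196-57172325, plus strand): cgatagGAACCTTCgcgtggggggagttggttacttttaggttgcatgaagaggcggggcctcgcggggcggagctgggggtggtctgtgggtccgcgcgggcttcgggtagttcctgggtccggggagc
DNAJB1 and DNAJA4 each had 2 matches in this stretch, beginning 77 and 47 bases before the start in DNAJB1 and 91 and 52 bases before it in DNAJA4. DNAJB4 had 1 match beginning 98 bases before the start and BAG2 had 1 at 124 bases. The long form is shown for 5 of the 9 genes that carry it, picked by hand for comparison. Their layout does not stand for all 9. In HSPD1 and DNAJB6 the long form began more than 130 bases before the start, and in DNAJA1 it began after the start.
HSPA6 (chr1:161524410-161524539, plus strand): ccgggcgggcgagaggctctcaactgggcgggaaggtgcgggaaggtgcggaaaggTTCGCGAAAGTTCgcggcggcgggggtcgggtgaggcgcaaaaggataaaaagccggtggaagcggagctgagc
HSP90AA1 (chr14:102087045-102087174, minus strand): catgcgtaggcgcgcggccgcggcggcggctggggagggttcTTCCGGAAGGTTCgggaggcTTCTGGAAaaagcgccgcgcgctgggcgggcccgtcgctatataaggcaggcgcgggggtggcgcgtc
HSP90AB1 (chr6:44247813-44247942, plus strand): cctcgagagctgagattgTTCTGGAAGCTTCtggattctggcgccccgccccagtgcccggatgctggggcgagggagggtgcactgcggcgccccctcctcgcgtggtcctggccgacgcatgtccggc
SERPINH1 (chr11:75562123-75562252, plus strand): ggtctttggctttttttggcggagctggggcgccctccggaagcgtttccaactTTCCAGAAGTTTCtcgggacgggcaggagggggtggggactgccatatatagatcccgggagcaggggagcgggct
CHORDC1 (chr11:90223050-90223179, minus strand): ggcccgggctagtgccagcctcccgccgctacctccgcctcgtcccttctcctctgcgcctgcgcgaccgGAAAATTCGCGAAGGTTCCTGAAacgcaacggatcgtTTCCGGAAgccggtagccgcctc
CHORDC1 held 5 overlapping or neighbouring matches, beginning between 60 and 23 bases before the start. Those of HSPA6 began 74 and 69 bases before the start, and those of SERPINH1 76 and 71 bases before it.

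Across the 34 measured chaperone genes, most values lay near or above the untreated array. Both cisplatin arrays lay above the untreated array for 20 of 34 genes (58.8%), against 39.2% of all genes tested, and both lay below it for 2 (DNAJA3 and HSP90AA1; 5.88%), against 27.4%. The median log2 difference was 0.14 in B1 and 0.21 in B2, where that of all genes was 0.03 and 0.05. At least 1.5-fold higher in both arrays were 4 genes, HSPA2, DNAJA4, DNAJB1 and DNAJB4 (11.8%), against 0.956% of all genes, and 0 of 34 were as much lower in both, against 2.65%. At 2-fold the count was 0 of 34 in either direction (0.142% of all genes higher, 0.678% lower). Both differences share the one untreated array, so a low reading there would raise both. The shares of all genes were not matched for intensity. The median untreated log2 was 6.09 over all genes, whereas 21 of the 34 chaperone genes were at 9 or more. Of those 21, 1 was at least 1.5-fold higher in both arrays. After centring each array on its median, the counts above and below untreated were 18 and 5 of 34. The shares of all genes after centring were not computed, so these 2 counts have no background beside them.

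No gene of the array passed the test: limma, a linear model with a variance pooled over genes, gave 0 of 19775 at a Benjamini-Hochberg adjusted p of 0.05 (0%), and 565 genes (2.86%) at an unadjusted p under 0.05. For the chaperone genes the adjusted p ran from 0.969 to 0.999. Of the 34, 2 genes (DNAJB4 and HSPA2; 5.88%) were among those under 0.05 before adjustment. The spread was estimated from the cisplatin pair alone (1 residual degree of freedom), and an exact permutation test of 1 array against 2 cannot go below a one-sided p of 0.333. The differences below are therefore descriptions of these arrays, each given with the limma standard error (SE) of the mean of B1 and B2 minus untreated, n = 2 against 1.

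**Figure D1:**
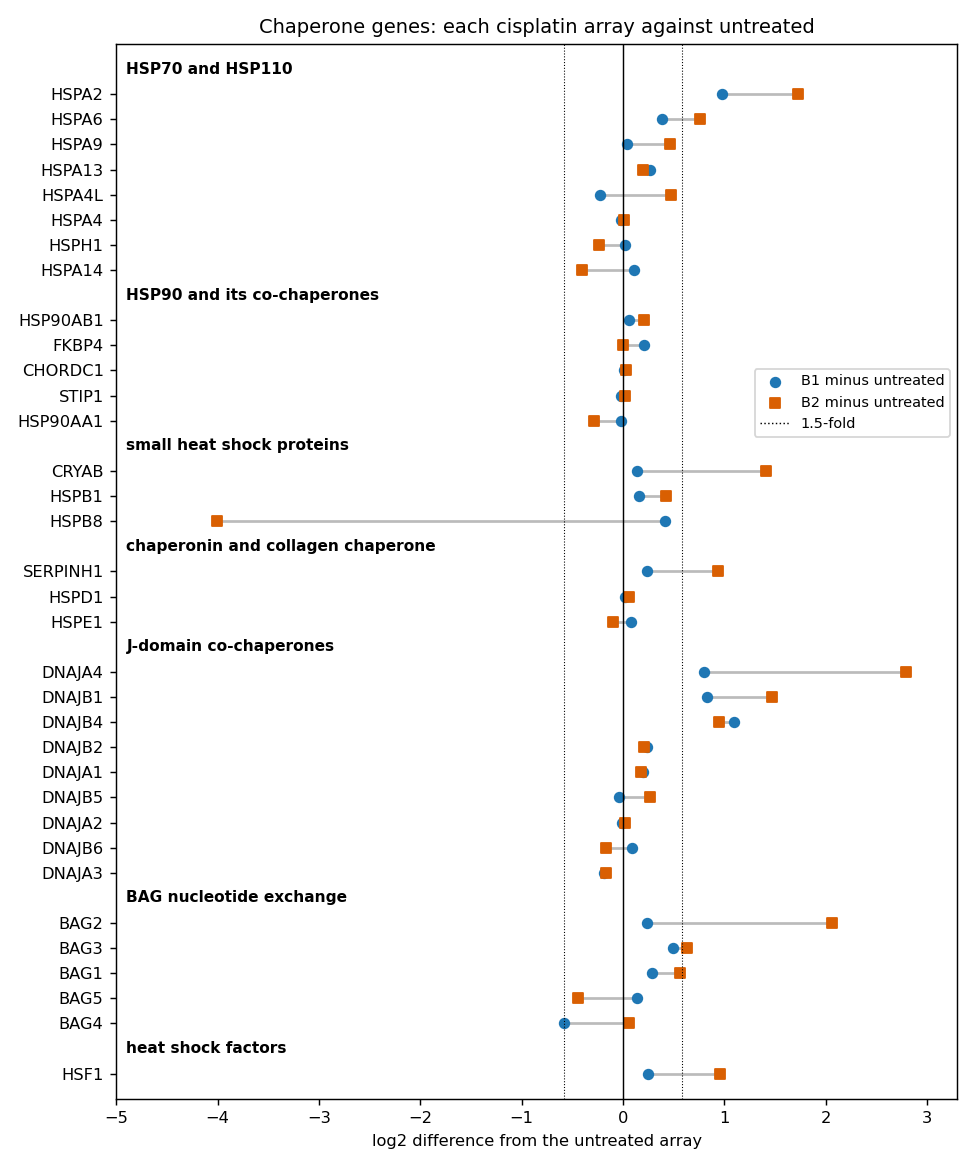
Log2 difference of B1 (circles) and of B2 (squares) from the untreated array for the 34 measured chaperone genes, by role; the dotted lines mark 1.5-fold. HSPA2, DNAJA4, DNAJB1 and DNAJB4 lie beyond 1.5-fold on the right in both arrays, and HSPB8 lies at 0.41 in B1 and -4.01 in B2.

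**Figure D2:**
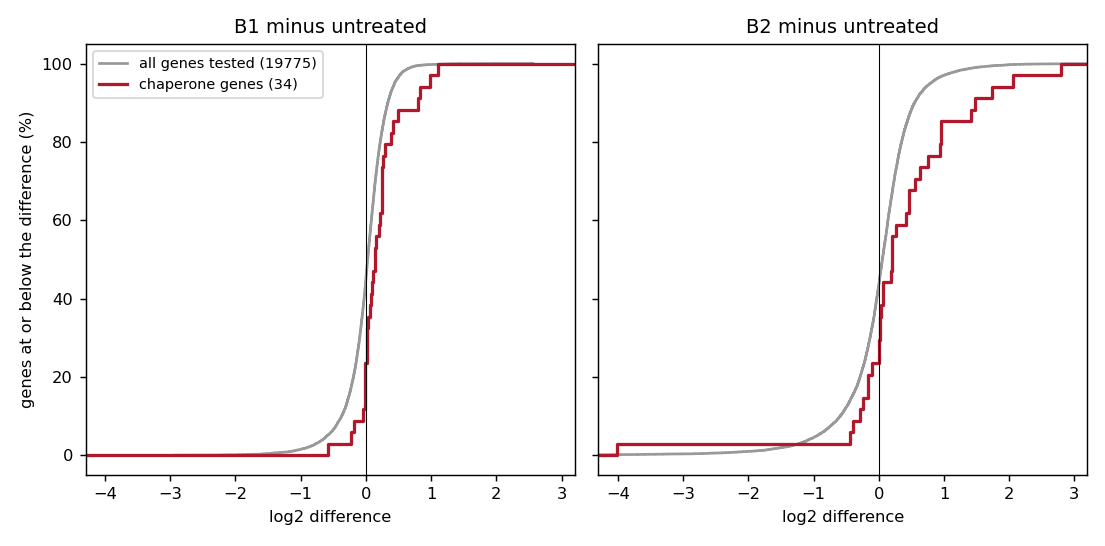
Cumulative share of genes (percent) by log2 difference from untreated, in B1 (left) and B2 (right), for the 34 chaperone genes and for all 19775 genes. The chaperone curve lies to the right of the other over most of its range, and its median is 0.14 against 0.03 in B1 and 0.21 against 0.05 in B2; its lowest step in B2, at -4.01, is HSPB8.

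The J-domain co-chaperones held 3 of the 4 genes at least 1.5-fold higher in both arrays. Of their 9 genes, 5 lay above untreated in both arrays and 1 below, against 39.2% and 27.4% of all genes. The median log2 difference was 0.20 in B1 and 0.21 in B2. DNAJB4, which stimulates HSP70 proteins in the cytosol, had an intensity of 140 untreated, 301 in B1 and 271 in B2. Both treated values were about equally far above the untreated one, 2.03-fold on average (log2 difference 1.02, SE 0.20), and the SD of the cisplatin pair was 0.11. Its other probe set read 116, 234 and 255, so that the order of B1 and B2 differed between its probe sets while both lay above untreated.

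DNAJB1 (HSP40), the main stress-inducible partner of HSP70, had an intensity of 648 untreated, 1150 in B1 and 1794 in B2. It was higher by 0.83 and 1.47 on the log2 scale, or 2.22-fold on average (SE 0.37 on the log2 scale), with B2 well above B1. The second probe set of DNAJB1 gave 483, 881 and 1282, the same order. DNAJA4, a J-domain protein of the DNAJA class, read 42.2 untreated, 73.4 in B1 and 291 in B2. Its log2 differences of 0.80 and 2.79 were far apart (mean 1.79, SE 1.01), and its untreated reading lies near the array medians of 34.8 to 35.9 over all probe sets. Without detection calls such a reading cannot be told from that of an undetected transcript, which leaves the size of the difference uncertain. Of its 4 probe sets, one gave 27.4, 39.5 and 158, but another gave 62.5, 69.2 and 65.3, so that the mean over all of them was 0.38 in B1 and 1.76 in B2. On that mean DNAJA4 was no longer 1.5-fold higher in B1.

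On their brightest probe sets, the other J-domain genes of the list lay close to untreated. DNAJA1, which also works with cytosolic HSP70, was at 0.20 in B1 and 0.18 in B2, and DNAJB2, a neuronally enriched member that also occurs elsewhere, was at 0.24 and 0.21. DNAJA2 was at -0.01 and 0.02, and DNAJB6, which suppresses aggregation, at 0.09 and -0.17. The second probe set of DNAJA1 gave 0.34 and -0.15, and that of DNAJA2 gave 0.35 and -0.13. DNAJB5 was at -0.04 and 0.27. DNAJA3, a mitochondrial J-domain protein, read 1388 untreated, 1215 in B1 and 1230 in B2. It lay below untreated on both, at -0.19 and -0.17, as did both of its probe sets.

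Among HSP70 and HSP110 genes, HSPA2 stood apart from the others. HSPA2, an HSP70 that is most abundant in the testis, had an intensity of 134 untreated, 264 in B1 and 444 in B2. This was 1.98-fold and 3.32-fold the untreated value (log2 difference 1.36, SE 0.42), and it has a single probe set. HSPA6, an HSP70 that many cells transcribe only under strong stress, read 34.7, 45.1 and 58.7, which put it 0.38 above untreated in B1 and 0.76 in B2 on the log2 scale (SE 0.26). Those readings also lie near the array medians, and its other probe set gave 19.6, 21.7 and 21.1.

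The remaining genes of this class gave small or opposed differences. HSPA9 (mortalin), the mitochondrial HSP70, had an intensity of 3418 untreated, 3510 in B1 and 4713 in B2, so that only B2 stood off (log2 difference 0.46). HSPA13 was at 0.27 and 0.20. The HSP110 gene HSPH1, whose product exchanges nucleotide on HSP70, read 6554, 6625 and 5550, or 0.02 and -0.24. HSPA4, another HSP110 protein, was at -0.02 and 0.01, HSPA4L at -0.23 and 0.47, and HSPA14, a ribosome-associated HSP70, at 0.11 and -0.40. For HSPA4L, HSPA4, HSPH1 and HSPA14 the untreated array lay between the cisplatin arrays.

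BAG genes lay above untreated on both arrays in 3 of 5 cases, against 39.2% of all genes. Their median log2 difference was 0.24 in B1 and 0.56 in B2. BAG3, which links HSP70 to selective autophagy and is a known HSF1 target, had an intensity of 976 untreated, 1367 in B1 and 1513 in B2. The 2 treated values were close, 1.40-fold and 1.55-fold the untreated one (log2 difference 0.56, SE 0.20). BAG1, which binds BCL2 as well as HSP70, read 324, 395 and 477, and its 3 probe sets all exceeded untreated on both arrays, by 0.29 to 0.58 in B1 and 0.56 to 0.86 in B2. BAG2, an inhibitor of the ubiquitin ligase CHIP, read 82.2, 97.2 and 344: B1 was 0.24 above untreated on the log2 scale and B2 2.06 above it (mean 1.15, SE 0.93). Its value in B2 carried the mean, and 2 of 3 BAG2 probe sets exceeded untreated on both arrays (mean over probe sets 0.27 and 1.24).

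BAG4 and BAG5 had opposite patterns. BAG4, a silencer of death receptor signalling, read 609 untreated, 406 in B1 and 634 in B2. All 3 of its probe sets were below untreated in B1, by -0.54 to -0.61, and above it in B2, by 0.06 to 0.99. BAG5 read 767, 846 and 567: its 3 probe sets lay 0.02 to 0.31 above untreated in B1 and between -0.44 and -0.70 in B2. The cisplatin arrays therefore fell on either side of the untreated array for both genes, at every probe set.

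HSP90 and its co-chaperones were the role nearest to untreated by median. Of 5 measured genes, 3 lay above the untreated array in both and 1 below, against 39.2% and 27.4% of all genes, and 1 lay between. The medians were 0.01 (B1) and 0.02 (B2), and no difference on the brightest probe set exceeded 0.29 in size. HSP90AA1, the stress-inducible HSP90, had an intensity of 11410 untreated, 11279 in B1 and 9356 in B2 (log2 -0.02 and -0.29, SE of the mean 0.23). Of its 4 probe sets, 2 lay below untreated on both arrays, and the mean over all of them was 0.02 in B1 and -0.26 in B2. HSP90AB1, the constitutive form, read 7798, 8127 and 9046 (0.06 and 0.21; SE 0.20), and its 3 probe sets all exceeded untreated on both arrays. In B2 the 2 HSP90 genes thus lay on opposite sides of untreated. STIP1 (HOP), which bridges HSP70 and HSP90, was at -0.02 and 0.02, and CHORDC1 at 0.01 and 0.03. The immunophilin FKBP4 was at 0.21 and 0.00 (above untreated before rounding), and 2 of its 4 probe sets exceeded untreated on both arrays.

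The mitochondrial chaperonin was level as well on the brightest probe sets. HSPD1 (HSP60) had an intensity of 10785 untreated, 10948 in B1 and 11264 in B2, and its co-chaperonin HSPE1 (HSP10) had 2523, 2661 and 2361. Their log2 differences were 0.02 and 0.06 for HSPD1 and 0.08 and -0.10 for HSPE1. Of the 5 HSPD1 probe sets, 4 exceeded untreated on both arrays, and the mean over all 5 was 0.21 in B1 and 0.24 in B2. HSPD1 and HSPE1 are transcribed head to head, and the promoter window of HSPE1 shares 204 bases with one of HSPD1. SERPINH1 (HSP47), a collagen chaperone of the endoplasmic reticulum, read 791, 933 and 1515, or 0.24 above untreated in B1 and 0.94 in B2 on the log2 scale (SE 0.39).

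Small heat shock proteins differed more between B1 and B2 than from untreated in B1. HSPB1 (HSP27) had an intensity of 3366 untreated, 3754 in B1 and 4503 in B2 (log2 0.16 and 0.42; SE of the mean 0.23). CRYAB (alpha B-crystallin) read 39.7, 43.8 and 106, or 0.14 in B1 and 1.41 in B2 (mean 0.78, SE 0.66), from a baseline near the array medians. HSPB8, which forms a complex with BAG3, read 277 untreated, 369 in B1 and 17.2 in B2. It was thus above untreated in one cisplatin array and below it in the other (log2 0.41 and -4.01), the widest gap between B1 and B2 of the 34 genes. The B2 reading is below the array median of 35.6, so the size of the gap rests on a value that cannot be told from an undetected transcript. Its second probe set gave 46.6, 60.7 and 51.4, also near the array medians.

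HSF1, the master regulator of the heat shock response, was the single heat shock factor measured. It had an intensity of 109 untreated, 130 in B1 and 212 in B2, which is 0.25 and 0.96 above untreated on the log2 scale (SE 0.40). The second HSF1 probe set gave 60.7, 55.7 and 79.8, so it was above untreated in B2 alone, and the mean over both probe sets was 0.06 and 0.68. HSF1 is regulated mainly at the protein level, which these arrays do not measure.

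**Figure D3:**
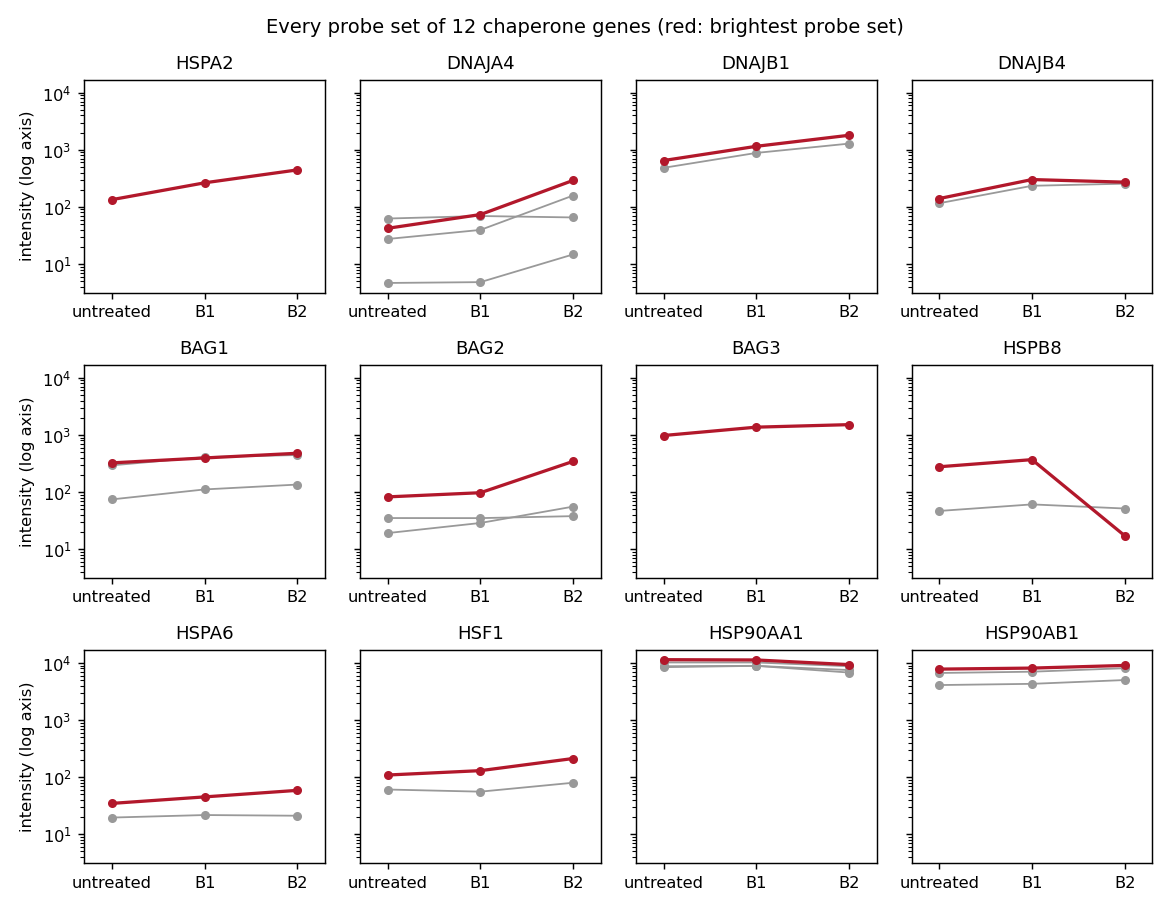
Intensity on the untreated, B1 and B2 arrays (log axis, thin joining lines for identity) of every probe set of 12 chaperone genes, with the brightest probe set by mean log2 in red and the others in grey; heights of different probe sets are not comparable. Both probe sets of DNAJB1 and of DNAJB4 lie higher in B1 and B2 than untreated, whereas the low B2 value of HSPB8, 17.2, appears in 1 of its 2 probe sets.

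Several of the larger values belonged to B2. In B1 alone 4 of 34 genes were at least 1.5-fold higher (11.8%; 1.9% of all genes) and 0 lower (5.09% of all genes). In B2 alone 10 were higher (29.4%; 9.02% of all genes) and 1, HSPB8, was lower (2.94%; 10.1% of all genes). At least 2-fold apart between B1 and B2 were 4 genes, HSPB8, DNAJA4, BAG2 and CRYAB (11.8%), against 6.23% of all genes. Within 0.25 of untreated on the log2 scale in both arrays were 13 of the 34 (38.2%), a share near that of all genes (38.8%). On the brightest probe set, they were HSPA4, HSPH1, HSP90AB1, HSPD1, HSPE1, DNAJA1, DNAJA2, DNAJA3, DNAJB2, DNAJB6, CHORDC1, STIP1 and FKBP4.

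B2 differed from untreated at 1.5-fold in a larger share of all genes than B1 did, and epithelial genes were among them. Of 12 squamous and epithelial markers, 10 were measured, and their summed intensity was 24637 untreated, 25250 in B1 and 37382 in B2; these sums are led by SFN and PERP. The members did not move alike in B2. At least 1.5-fold higher there were 4 of the 10, against 9.02% of all genes, among them the basal keratin KRT14 (278, 276 and 2372). As much lower was 1, KRT13 (66.0, 68.2 and 25.5), against 10.1% of all genes, and CDH1 (0.06) and EPCAM (-0.12) lay near untreated. Markers of other cell types summed to 237 to 276 for 6 fibroblast genes, most of it COL1A1 (122, 155 and 159), 89.0 to 96.0 for 4 of 5 leukocyte genes and 85.7 to 97.0 for 4 endothelial genes. PTPRC read between 5.24 and 6.24, close to the array minimum of 3.03. The part of this wider difference of B2, epithelial genes included, in the B2 values of DNAJA4, BAG2, CRYAB, SERPINH1, HSF1 and HSPB8 was not tested.

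The promoter classes were then set against the array values. The 8 measured genes with the long heat shock element (HSPA6, HSP90AA1, HSP90AB1, HSPD1, DNAJA1, DNAJB6, SERPINH1 and CHORDC1) had a median log2 difference of 0.08 (B1) and 0.12 (B2), and 0 of the 8 were at least 1.5-fold higher in both arrays. The 9 with the short form alone (HSPA4L, HSPA9, HSPB1, HSPB8, DNAJA4, DNAJB1, DNAJB4, BAG2 and STIP1) had medians of 0.24 and 0.47, and 3 of the 9 were. Among 12 genes with no match, medians were 0.11 and 0.11 and 1 gene, HSPA2, was. Of all genes, 0.956% were at least 1.5-fold higher in both arrays. On the mean of its probe sets DNAJA4 was at 0.38 in B1 and thus no longer among the 3. BAG3 and HSPH1 had no match in these windows. Genes differed within each class. CHORDC1, with the most matches, was at 0.01 and 0.03, and SERPINH1, also with the long form, at 0.24 and 0.94. DNAJB4, with 1 match, was at 1.10 and 0.95, and STIP1, also with 1 match, at -0.02 and 0.02. The classes overlap widely, and no test was made between them.

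**Figure D4:**
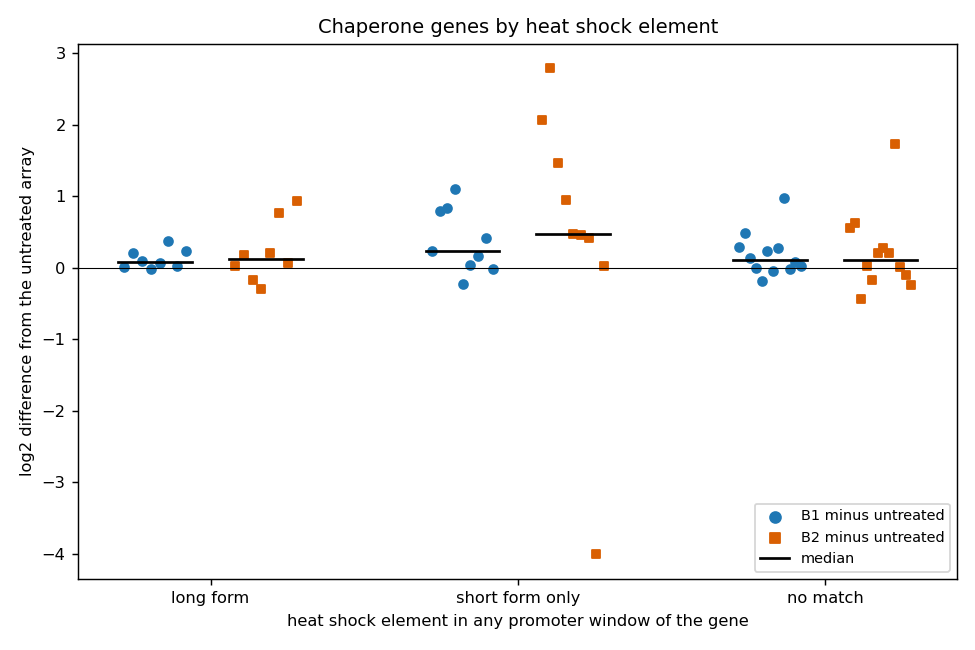
Log2 difference from untreated in B1 (circles) and B2 (squares) for the measured chaperone genes with a promoter window. Genes are grouped by the heat shock element found in any of their windows, and black bars are medians. The 8 genes with the long form lie between -0.29 and 0.94, and the 9 with the short form alone between -4.01 and 2.79.

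Other genes of protein folding were read from lists of related functions. Of 15 further HSP90 and HSP70 co-chaperones, 7 lay above untreated in both arrays and 5 below, against 39.2% and 27.4% of all genes. Their medians were 0.01 and 0.09, with 0 at 1.5-fold. By the mean of B1 and B2 on the brightest probe set, the ones farthest from untreated were CACYBP, an adaptor of ubiquitin ligases, at -0.11 and -0.59, and the cyclophilin PPID at 0.18 and 0.45. On the mean of its probe sets CACYBP was at 0.13 and -0.42 and PPID at 0.07 and -0.03. TRiC, the cytosolic chaperonin that folds actin and tubulin, had 7 measured subunits with medians of 0.04 and 0.15, led by CCT7 (0.10 and 0.48) and CCT3 (0.02 and 0.31). Prefoldin, which hands clients to TRiC, had 5 with medians of 0.04 and 0.05, led by PFDN5 (0.15 and 0.46) and PFDN2 (0.10 and 0.14). None of these 3 lists held a gene 1.5-fold from untreated in both arrays. Of all genes, 0.956% were that much higher and 2.65% that much lower, so a count of 0 in such short lists is close to the background.

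Of 19 other J-domain genes, 5 lay above untreated in both arrays and 9 below (39.2% and 27.4% of all genes). Their medians were -0.01 and -0.05. DNAJC6 (auxilin), which works with HSP70 to uncoat clathrin vesicles, read 509 untreated, 291 in B1 and 82.1 in B2. It was the 1 gene of the 19 at least 1.5-fold lower in both, against 2.65% of all genes. On the mean of its probe sets DNAJC6 was at -0.33 and -1.40, no longer 1.5-fold lower in B1. Of 11 further heat-inducible genes or heat shock factor genes, 6 lay above and 0 below (39.2% and 27.4% of all genes). Their medians were 0.20 and 0.16. Of the 6, HSPB2 (36.6 untreated) and HSPB3 (18.4 untreated) read near or below the array medians. The other 5 lay between, among them ZFAND2A (0.53 and -0.23), SQSTM1 (0.13 and -0.57) and CLU (0.30 and -1.02). IER5, which promotes HSF1 activity, read 960, 1511 and 1288 (0.65 and 0.42), and the polyubiquitin gene UBB read 8201, 10070 and 13349 (0.30 and 0.70). Among 10 chaperones of the endoplasmic reticulum, 7 lay above and 1 below (39.2% and 27.4% of all genes). Their medians were 0.07 and 0.24. DNAJB9, a J-domain co-chaperone of BiP, was the 1 gene of the 10 at least 1.5-fold higher in both arrays, against 0.956% of all genes. It read 389, 715 and 702, and on the mean of its probe sets it was at 0.72 and 0.53, below 1.5-fold in B2. No gene of these lists passed the limma test, where adjusted p was at least 0.969.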

How the data were processed

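Expression was measured on 3 Affymetrix arrays (1 untreated, 2 cisplatin). The authors deposited an intensity for each of 54675 probe sets, made with RMA (background correction, normalization between arrays and summary of probes) per the submitters' processing notes. No RMA version, chip definition or detection call was used. They ran from 3.03 to 19645, a linear scale, and were put on the log2 scale with no pseudocount. After 62 control probe sets were left out, 41091 carried 1 gene symbol, 1801 several and 11721 were unlisted and unnamed here. Gene numbers gave current symbols from GRCh38.p14 (19735 of 19775 genes found), and each gene was read from its brightest probe set by mean log2 over the arrays.

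The test was limma 3.58.1 under R 4.3.3 (lmFit, eBayes; 2.01 prior degrees of freedom) on log2 values, cisplatin against untreated, adjusted over all genes, and it was checked on simulated data. The members, gene lists and motifs were chosen with earlier results of these data known. Intensities on each array are given for genes 1.5-fold from untreated in both arrays, the 5 highest and 5 lowest, and a set of core chaperones; of other lists, genes at that fold or else the 2 farthest from untreated are named. With 3 arrays, precision is limited by their number. Alternatives were the mean over probe sets, quantile normalization, median centring, a mean log2 of at least 6, other variance priors, 2-fold in place of 1.5-fold and each cisplatin array alone. Columns left unused numbered 0.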

Additional observations from a re-analysis of the deposited data

How the results depend on the processing

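The count of genes passing limma was 0 under each of the alternatives fitted, and no value of it exists with 1 cisplatin array, where no residual degree of freedom is left. Under the mean of all probe sets, quantile normalization, median centring and a mean log2 of at least 6, the count at least 1.5-fold higher in both arrays was 3, 4, 4 and 4 of the chaperone genes, the count above untreated in both was 21, 22, 18 and 18, and the median difference lay between 0.11 and 0.17, against 0.13 as reported. The count below untreated in both was 5 with median centring, against 2, and the count at least 1.5-fold higher became 0 at 2-fold. Shares of all genes above and below untreated were not computed under these alternatives. With a single cisplatin array, the count above untreated was 26 either way and the count below was 8 either way. The shares of all genes above and below untreated in 1 array were not computed, so these counts have no background. The count at least 1.5-fold higher was 4 with B1 and 10 with B2 (1.9% and 9.02% of all genes). The count as much lower was 0 and 1 (5.09% and 10.1% of all genes), and the median difference was 0.14 and 0.21. The mean difference changed sign for STIP1 (0.03 with the mean of all probe sets and 0.03 with quantile normalization), DNAJB6 (0.04 with quantile normalization) and DNAJA2 (-0.01 with median centring), and the cause was not tested. With B2 alone the sign differed from that of the mean for 3 of 34 genes (HSPA4, BAG4 and STIP1) and with B1 alone for 9 (HSPA4L, HSPA14, HSPH1, HSPB8, HSPE1, DNAJA2, DNAJB5, DNAJB6 and BAG5). On the mean of all probe sets the difference was nearer 0 by over 1.5 times for HSPB8 (-0.77), DNAJA4 (1.07), BAG2 (0.76), HSPA6 (0.35), HSF1 (0.37) and BAG4 (-0.05), and for DNAJC6 (-0.86), CACYBP (-0.15) and PPID (0.02). The mean log2 filter left 31 of the 34 genes. No paired analysis was possible because the untreated array is single and carries no replicate number.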
